A study of Tupaia belangeri with 2 samples.

Results

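CNTN2, DSCAM and CHL1 encode cell adhesion molecules of the immunoglobulin superfamily and are described here across the neurons and progenitors of the embryonic tree shrew brain. The genes were taken by name from the annotation that accompanies the counts, they were chosen with earlier results of these data known, and each is among the leading genes of the cluster in which it is described as highest. Each name matched 1 gene model, so the members are 3 of 23975 gene models (18543 names). Whole brains of 2 tree shrew (Tupaia belangeri) embryos at 4 to 5 postconceptional weeks were dissociated after removal of the dura mater and blood vessels, and each gave 1 single-cell library made with the 10x Chromium 3′ kit (v3 chemistry). There was no treatment and no genotype to compare, so the comparisons are between cell classes within the same 2 brains. The values are raw counts of unique molecular identifiers (UMIs), each of which marks 1 captured transcript.

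Members of this superfamily carry immunoglobulin-like domains outside the cell, with which they bind copies of themselves or other receptors on neighbouring membranes. CNTN2 (contactin 2, also called TAG-1) is held in the membrane by a lipid anchor and is known from growing axons, including commissural axons, where it binds L1-type molecules and contactin-associated proteins. DSCAM (Down syndrome cell adhesion molecule) binds itself and is known for self-avoidance and spacing of neurites, and in axon guidance as a receptor of netrin. CHL1 (close homolog of L1) is a transmembrane protein of the L1 family, known for neurite growth, neuronal migration and, through partners such as NRP1, the response to semaphorins.

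Embryo 1 gave 9241 barcodes with 41868023 UMIs and embryo 2 gave 9685 barcodes with 38077767 UMIs, and 18 barcodes occurred in both libraries. Cells with at least 200 genes were kept, which left 8408 and 9327, with median UMIs per cell of 3539 and 3169. Haemoglobin genes held 22.5% and 8.38% of their UMIs. The cells formed 16 clusters, of which 14 were named from marker genes and gave 12 classes, each called by its cell type with "-like". The 3 members and all other adhesion and partner genes listed below took no part in forming the clusters. Levels are given in CPM, which is UMIs per 1000000 UMIs of the class. Among the markers that named the classes, GATA3 stood at 69 and 78 CPM in midbrain GABAergic-like cells of embryos 1 and 2. NEUROD6 stood at 1452 and 1355 CPM in cortical excitatory-like cells and LHX9 at 224 and 262 CPM in midbrain glutamatergic-like cells. Since these genes set the names, their levels are no separate check of them. One neuronal cluster earned the name granule neuron by CBLN1, ZIC1, ZIC2 and ZIC4, but ATOH1, which marks granule neuron precursors, had no UMI in it, and GAD2 (340 and 386 CPM) was above SLC17A6 (135 and 127 CPM). It is called the ZIC and CBLN1 cluster here and was counted with the glutamatergic classes, and results are also given without it. Levels are CPM, errors are the SD of the 2 embryos, and intervals in single embryos are exact 95% intervals that cover counting error only.

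CNTN2 was sparse and centred on 1 class. It had 279 UMIs in embryo 1 and 384 in embryo 2, found in 219 and 318 cells (2.60% and 3.41% of all cells), and no cell held more than 4. Midbrain glutamatergic-like cells, which made up 7.0% and 11.9% of the cells, held 55.8% and 68.2% of its UMIs. Its level there was 70.3 CPM in embryo 1 and 64.0 CPM in embryo 2 (67.1 ± 4.45, SD, n = 2). Both values lay above those of every other class. Next came the ZIC and CBLN1 cluster at 11.6 and 9.08 CPM, cortical excitatory-like cells at 9.19 and 10.8 CPM and midbrain GABAergic-like cells at 11.5 and 7.21 CPM, whose values overlapped. Forebrain GABAergic-like cells lay below these with 5.55 and 4.06 CPM. Progenitors were near the lower end, with 0.99 and 1.33 CPM in dividing cell-like cells and 0.92 and 1.05 CPM in radial glia-like cells, against 0.77 and 0.32 CPM in erythroid-like cells, which should lack the gene. Most UMIs of erythroid-like cells are haemoglobin, which lowers their CPM of every other gene. The TMM scaling factors were 0.0821 and 0.0925 for them and 1.19 and 1.21 for radial glia-like cells. Erythroid-like CPM, here and below, is thus no like-for-like background for other classes. No CNTN2 UMI was found in microglia-like cells, which allows up to 12.8 and 10.5 CPM by the limit of 3 counts, nor in meningeal fibroblast or pericyte-like cells.

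DSCAM was centred on another class. It had 398 UMIs in embryo 1 and 1034 in embryo 2, in 345 and 830 cells (4.10% and 8.90%), and midbrain GABAergic-like cells held 73.9% and 82.3% of them while making up 11.6% and 22.3% of the cells. The level in that class was 125 CPM in embryo 1 and 175 CPM in embryo 2 (150 ± 35.5, SD, n = 2). Both values stood clear of all other classes, and embryo 2 was the higher. The ZIC and CBLN1 cluster followed with 12.3 and 24.3 CPM. Midbrain glutamatergic-like cells had 7.71 and 10.5 CPM, forebrain GABAergic-like cells 5.55 and 6.38 CPM and cortical excitatory-like cells 1.53 and 3.59 CPM. The embryo values of these 3 classes did not overlap. Erythroid-like cells had 0.99 and 1.89 CPM. Dividing cell-like cells (1.12 and 3.40 CPM) and radial glia-like cells (1.84 and 1.58 CPM) lay within the span of these low values.

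CHL1 was spread over more classes than the other 2 genes and was graded between them. It had 5397 UMIs in embryo 1 and 5690 in embryo 2, in 1472 and 1757 cells (17.5% and 18.8%), with up to 50 and 45 UMIs in 1 cell. The ZIC and CBLN1 cluster had 975 CPM (embryo 1) and 787 CPM (embryo 2; 881 ± 133, SD, n = 2), and its 9.12% and 8.03% of the cells held 51.5% and 38.1% of the UMIs. Midbrain glutamatergic-like cells came second at 343 and 402 CPM (372 ± 41.8). Cortical excitatory-like cells (224 and 217 CPM) and forebrain GABAergic-like cells (230 and 171 CPM) overlapped and came next. Radial glia-like cells (54.3 and 60.9 CPM), midbrain GABAergic-like cells (52.3 and 49.2 CPM) and dividing cell-like cells (26.8 and 31.1 CPM) followed. The 2 embryo values of each did not overlap those of the next, but the intervals of radial glia-like and midbrain GABAergic-like cells met in both embryos. Erythroid-like cells had 9.43 and 8.52 CPM. So DSCAM and CHL1 took opposite places in the midbrain GABAergic-like class, the first for DSCAM and the lowest of the 5 neuronal classes for CHL1. The plot of levels by class shows the 3 distributions side by side.

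**Figure D1:**
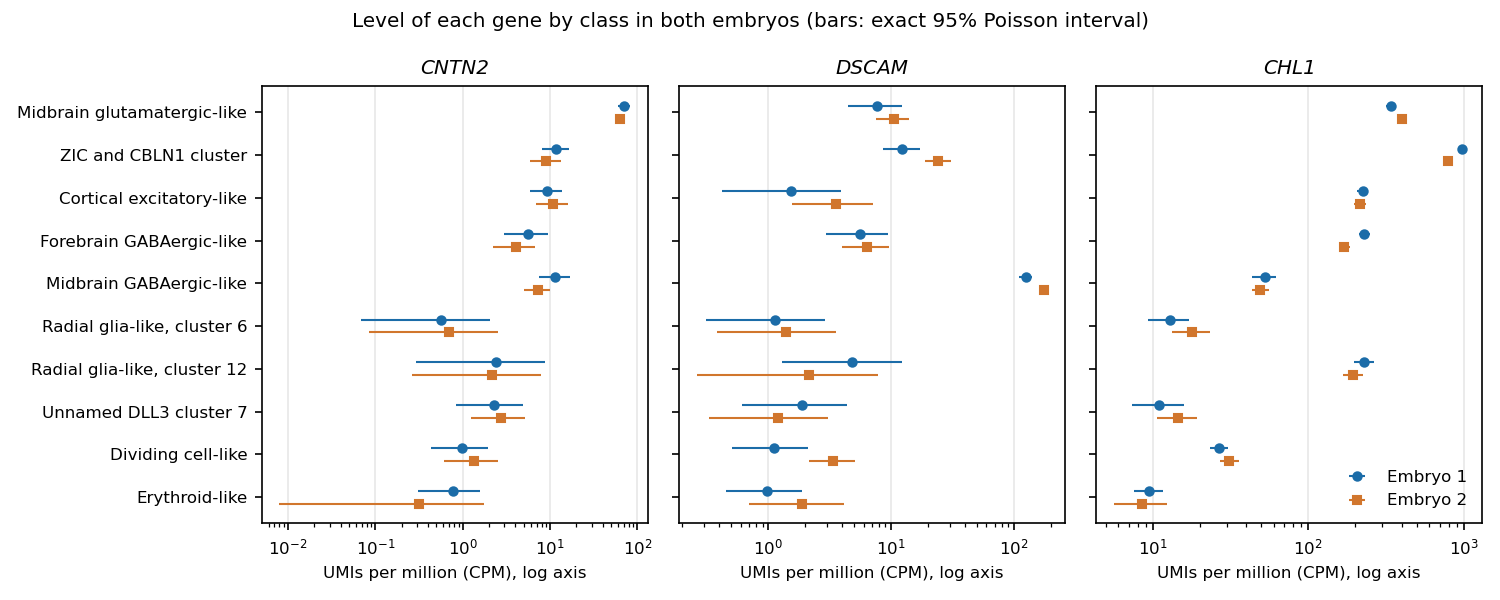
Level of CNTN2, DSCAM and CHL1 in CPM (log axis) in each class or cluster, with a circle for embryo 1, a square for embryo 2 and bars for exact 95% Poisson intervals. CNTN2 is highest in midbrain glutamatergic-like cells (70.3 and 64.0 CPM), DSCAM in midbrain GABAergic-like cells (125 and 175 CPM) and CHL1 in the ZIC and CBLN1 cluster (975 and 787 CPM).

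The class that was highest in CPM was also highest in the share of cells with a UMI after every cell had been thinned to 2000 UMIs, to compare classes at 1 depth. CNTN2 was found in 11.5% (interval 8.96% to 14.4%) and 10.3% (8.47% to 12.3%) of 557 and 1034 midbrain glutamatergic-like cells, and in 0.133% of 751 erythroid-like cells of embryo 1 and 0 of 226 of embryo 2, which allows a share of up to 1.33%. DSCAM was found in 18.6% (15.6% to 21.9%) and 26.0% (23.6% to 28.6%) of 613 and 1187 midbrain GABAergic-like cells, and the intervals of the embryos did not meet. Lower in the order the shares and levels differed, with CNTN2 in 1.55% and 1.41% of the ZIC and CBLN1 cluster but in 2.47% and 2.78% of cortical excitatory-like cells. CHL1 was found in 57.2% and 51.0% of the ZIC and CBLN1 cluster, in 28.0% and 30.1% of midbrain glutamatergic-like cells, in 26.4% and 26.0% of cortical excitatory-like cells, in 18.6% and 15.8% of forebrain GABAergic-like cells and in 5.71% and 5.14% of midbrain GABAergic-like cells. In erythroid-like cells CHL1 was found in 1.46% and 1.33%, against 7.20% and 7.79% in radial glia-like and 3.47% and 3.67% in dividing cell-like cells. The erythroid-like values are a low background here, since most UMIs of those cells are haemoglobin and thinning leaves few others. In radial glia-like cells CNTN2 (0 of 861 cells, which allows up to 0.348%, and 0.511%) and DSCAM (0.348% and 0.383%) were near the background. Without thinning the shares were 19.1% and 18.3% for CNTN2, 25.5% and 32.2% for DSCAM and 62.7% and 62.2% for CHL1 in the class where each was highest, against 0.772% and 0.433%, 1.16% and 2.16%, and 5.92% and 5.19% in erythroid-like cells. Unthinned, CHL1 was found in 8.98% and 11.4% of radial glia-like cells. Median UMIs per cell were 12416 and 14320 in erythroid-like cells. Thinning left out 360 and 892 of the midbrain GABAergic-like cells and 30 and 74 of the midbrain glutamatergic-like cells as too shallow.

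Neurons were compared with progenitors to see where the 3 genes stand in the step from dividing cell to neuron. The comparison set the mean of the 5 neuronal classes against that of radial glia-like and dividing cell-like cells, on UMIs summed per embryo and class. A log2 fold change here is a difference of mean log2 levels over classes. The mean CNTN2 level of the neuronal classes was 21.6 and 19.0 CPM against 0.96 and 1.19 CPM in progenitors, for DSCAM it was 30.4 and 44.0 against 1.48 and 2.49 CPM, and for CHL1 365 and 325 against 40.6 and 46.0 CPM. For each gene both embryos had the mean neuronal value above both mean progenitor values, but this did not hold for each neuronal class. DSCAM in cortical excitatory-like cells (1.53 and 3.59 CPM) overlapped dividing cell-like (1.12 and 3.40 CPM) and radial glia-like cells (1.84 and 1.58 CPM). CHL1 in midbrain GABAergic-like cells (52.3 and 49.2 CPM) was below the pooled radial glia-like cells (54.3 and 60.9 CPM). It was above radial glia-like cluster 6 (12.8 and 17.8 CPM) and below radial glia-like cluster 12 (229 and 194 CPM). CNTN2 was higher in neurons by a log2 fold change of 3.29 ± 0.25 (SE; adjusted p = 3.5e-21, edgeR quasi-likelihood test on 10546 genes with Benjamini-Hochberg adjustment, embryo as a block). DSCAM was higher by 2.50 ± 0.25 (adjusted p = 3.7e-15, same edgeR test) and CHL1 by 2.34 ± 0.07 (adjusted p = 1.6e-48, same edgeR test). All 3 members were thus called, against 65.6% of all genes tested (30.4% higher in neurons and 35.2% lower), so a call by itself was common in this comparison. The CNTN2 and DSCAM values of the progenitors rest on 12 and 13 and on 17 and 29 UMIs. Leaving out the highest Scrublet (doublet) scores gave 4.38 for CNTN2 and 3.11 for DSCAM, cells with at least 500 genes gave 4.31 for CNTN2 and 3.52 for CHL1, those with at least 1000 genes gave 2.99 for CHL1, and classes set by marker gates gave 2.18, 1.01 and 2.99 for CNTN2, DSCAM and CHL1, all in the same direction and past the threshold. With at least 500 or 1000 genes a cluster with BCAN among its leading genes earned no name and was not among the progenitors. The gates added thalamic-like (119 and 193 cells) and striatal-like classes (40 and 80 cells) to the neurons. They also added a neurogenic progenitor-like class (30 and 46 cells) to the progenitors. The p-values of this and all other fits with the embryo block measure how far class differences vary between the 2 embryos. That spread is shared over all classes of the fit, and variation among animals at large is not measured.

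Glutamatergic and GABAergic classes were compared next, and here the members parted. CNTN2 had mean levels of 30.3 and 27.9 CPM in glutamatergic and 8.52 and 5.64 CPM in GABAergic classes, and CHL1 had 514 and 468 against 141 and 110 CPM. DSCAM went the other way, with 7.18 and 12.8 CPM in glutamatergic and 65.3 and 90.8 CPM in GABAergic classes. In no case did the means of the 2 sides overlap between embryos. The GABAergic mean of DSCAM came from the midbrain class, since forebrain GABAergic-like cells (5.55 and 6.38 CPM) lay below midbrain glutamatergic-like cells (7.71 and 10.5 CPM) and the ZIC and CBLN1 cluster (12.3 and 24.3 CPM). Single classes also overlapped across the sides for the other genes. CNTN2 in cortical excitatory-like cells (9.19 and 10.8 CPM) and the ZIC and CBLN1 cluster (11.6 and 9.08 CPM) overlapped midbrain GABAergic-like cells (11.5 and 7.21 CPM). CHL1 in forebrain GABAergic-like cells (230 and 171 CPM) overlapped cortical excitatory-like cells (224 and 217 CPM). The log2 fold changes were 1.60 ± 0.19 for CNTN2 (adjusted p = 1.1e-10), 2.12 ± 0.07 for CHL1 (adjusted p = 2.1e-45) and -1.93 ± 0.22 for DSCAM (adjusted p = 1.5e-11, edgeR quasi-likelihood test with Benjamini-Hochberg adjustment). All 3 members were called, 2 higher and 1 lower, where 24.4% of genes were called, 13.0% higher and 11.4% lower in glutamatergic classes. Without the ZIC and CBLN1 cluster the values were 2.08 for CNTN2, 1.62 for CHL1 and -2.54 for DSCAM. At a clustering resolution of 1.0 DSCAM stood at -1.23, and CHL1 stood at 1.36 with cells of at least 500 genes and at 0.95 with marker gates, with the calls kept. With at least 500 genes the classes also changed, and the CBLN1 and ZIC class held 243 and 199 cells in place of 767 and 749. A striatal-like class of 923 and 1199 cells was then counted as GABAergic. It shared the leading genes ARHGDIG, SCN2A and TAU with the ZIC and CBLN1 cluster. A striatal-like class was also counted as GABAergic at a resolution of 1.0 (471 and 695 cells) and with marker gates (40 and 80 cells). The gates also gave a thalamic-like class of 119 and 193 cells, counted as glutamatergic.

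Among glutamatergic classes, cortical excitatory-like cells were lower than midbrain glutamatergic-like cells for all 3 genes. No cluster earned the name of thalamic neuron, so the midbrain class stood alone on the other side, although it also held TCF7L2 (905 and 843 CPM), which marks thalamic neurons. Its name was a near choice, since 5 midbrain glutamatergic and 4 thalamic markers passed for it, with SLC17A6 in both lists. The class levels are those given above, and both cortical values were below both midbrain values for each gene. CNTN2 was lower by a log2 fold change of -2.64 ± 0.21 (adjusted p = 1.6e-18, edgeR quasi-likelihood test with Benjamini-Hochberg adjustment). CHL1 was lower by -0.66 ± 0.09 (adjusted p = 2.0e-09, same edgeR test) and DSCAM by -1.70 ± 0.43 (adjusted p = 0.0019, same edgeR test), the last on 4 and 8 UMIs in the cortical class. Of all genes 18.3% were called, 9.59% higher and 8.72% lower in cortical cells. Marker gates gave -1.36 for CNTN2 and -2.94 for DSCAM. With them a thalamic-like class of 119 and 193 cells was averaged with the midbrain class, so the other side was not the same.

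Between the GABAergic classes DSCAM showed its largest difference. Forebrain GABAergic-like cells, with DLX2 and DLX5, had 13 and 22 DSCAM UMIs, and midbrain GABAergic-like cells, with GATA3, OTX2 and LHX1, had 294 and 851. The log2 fold change of forebrain over midbrain was -4.70 ± 0.20 (adjusted p = 2.3e-35, edgeR quasi-likelihood test with Benjamini-Hochberg adjustment). CHL1 was higher in the forebrain class, with 230 and 171 against 52.3 and 49.2 CPM and a log2 fold change of 1.93 ± 0.12 (adjusted p = 1.4e-25, same edgeR test). CNTN2 stood at -0.92 ± 0.34 (adjusted p = 0.049, same edgeR test), and this call was lost under 5 of the alternatives, among them library totals in place of TMM factors (adjusted p = 0.058, edgeR) and no block (adjusted p = 0.117, edgeR). The 3 members were called where 17.6% of genes were, 9.11% higher and 8.46% lower in the forebrain class. Cells with at least 500 or 1000 genes and marker gates gave -4.08, -3.97 and -3.96 for DSCAM. Cells with at least 500 genes and marker gates gave 2.87 and 0.65 for CHL1, and cells with at least 1000 genes gave -1.58 for CNTN2. With at least 500 genes the forebrain side also held the striatal-like class of 923 and 1199 cells, and with marker gates one of 40 and 80 cells.

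**Figure D2:**
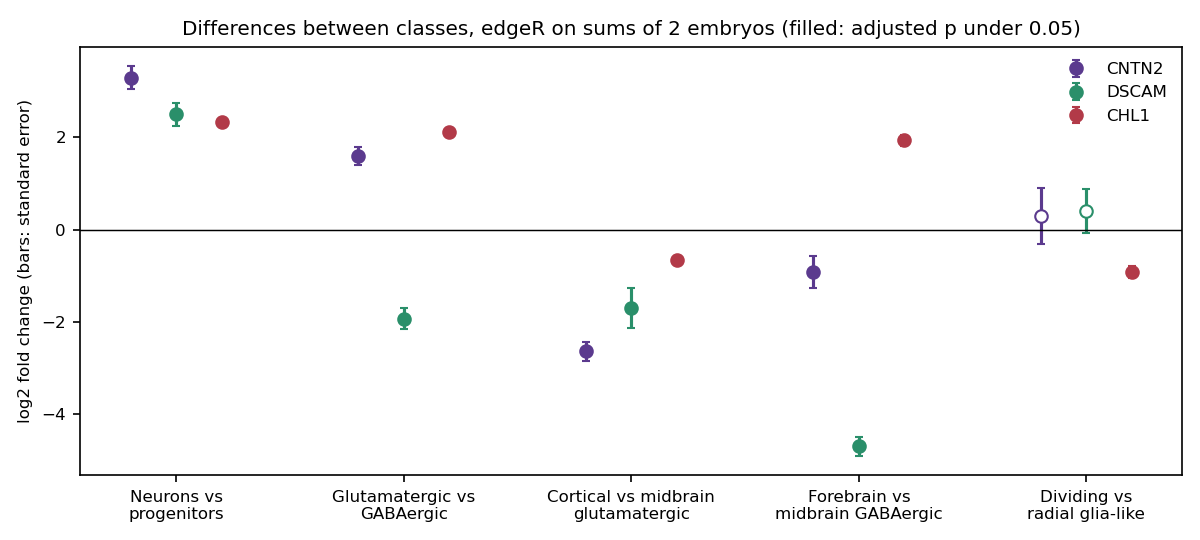
Log2 fold change of each member in the 5 class comparisons, with bars for the standard error, from edgeR on UMIs summed per embryo and class (2 embryos). Filled points have an adjusted p under 0.05, DSCAM reaches -4.70 between forebrain and midbrain GABAergic-like cells, and CNTN2 and DSCAM are open points between dividing and radial glia-like cells.

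Within the progenitors only CHL1 was called, and its direction depended on 1 cluster. CNTN2 was at 0.29 ± 0.61 (adjusted p = 0.80) and DSCAM at 0.40 ± 0.47 (adjusted p = 0.62, edgeR quasi-likelihood test with Benjamini-Hochberg adjustment) for dividing over radial glia-like cells, both on low counts. With at least 500 genes per cell CNTN2 was called higher (2.70, adjusted p = 0.030, edgeR) and with marker gates lower in dividing cells (-1.22, adjusted p = 0.016, edgeR), and DSCAM stood at -0.64 without embryo 2. CHL1 was lower in dividing cells by -0.91 ± 0.13 (adjusted p = 2.7e-08, same edgeR test), 1 of 3 members where 24.2% of genes were called, 13.1% higher and 11.0% lower. The radial glia-like class joins 2 clusters that differ in CHL1. Cluster 6, with UNG and the replication genes MCM3, MCM4 and MCM5 among its leading genes, held 12.8 and 17.8 CPM. Whether its cells were in the cell cycle was not tested, so the radial glia-like class is no sure non-dividing side. Cluster 12, led by BCAN, VCAM1 and SPON1, held 229 and 194 CPM, a level like that of cortical excitatory-like neurons. Without cluster 12 the fold change of CHL1 turned to 0.92 (adjusted p = 1.4e-04, same edgeR test), and CHL1 in neurons over progenitors stood at 3.28. With cells of at least 500 or 1000 genes it was also higher in dividing cells, by 0.86 and 0.57 (adjusted p = 0.0038 and 0.017, same edgeR test). In both settings a cluster with TTR, CP and BCAN among its leading genes earned no name. The radial glia-like class did not hold it, so these values are no separate result from that without cluster 12. Cluster 12 had SLC1A3, a glutamate transporter of radial glia and astrocytes, at 365 and 248 CPM against 59 and 70 CPM in cluster 6, and it also had STMN2, a neuronal gene, at 641 and 622 CPM against 145 and 137 CPM. Of the astrocyte markers S100B stood at 25 and 21 CPM, GFAP at 17 and 4 CPM and AQP4 at 4 and 3 CPM in cluster 12. These levels are not set against cluster 6 here, and the other listed astrocyte markers are not given. The part of neuronal transcripts in the CHL1 level of cluster 12 was not tested. Of the clusters without a name, cluster 7, whose leading genes include DLL3, JAG1 and CDKN1C, had 11.0 and 14.5 CPM of CHL1 and cluster 11, led by embryonic globins, had 39.4 and 50.9 CPM.

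A finer partition at a resolution of 1.0 gave smaller clusters within and across the classes in which the members were high. The midbrain GABAergic-like class split into a cluster led by RGS4, ADARB2 and NTS with 181 and 239 DSCAM CPM and one led by LHX1, GATA3 and TFAP2A with 68.7 and 105 CPM. CHL1 was also higher in the first of these, at 92.0 and 72.9 against 26.1 and 22.3 CPM, so within this class the 2 genes went in the same direction in both embryos. CNTN2 was found in a cluster led by POU4F2, TFAP2D and LHX9 (62.4 and 58.6 CPM). It was lower in one with DLL3, EBF3 and SHOX2 among its leading genes (41.6 and 44.2 CPM). CHL1 differed more between these 2 clusters, with 435 and 489 CPM in the first and 10.6 and 7.97 CPM in the second. The second is no plain subdivision, since 112 and 188 of its cells came from the midbrain glutamatergic-like class and 189 and 253 from the unnamed cluster 7, and none of the pan-neuronal markers passed for it. Its cells from the midbrain glutamatergic-like class held 101 and 87.7 CPM of CNTN2 and 16.1 and 4.11 CPM of CHL1, and those from cluster 7 held 4.38 and 9.05 CPM of CNTN2. The cells of the class in the POU4F2 cluster (471 and 915) held 63.2 and 58.5 CPM of CNTN2 and 423 and 490 CPM of CHL1. Within the class CNTN2 was thus present on both sides and was higher in the cells of the DLL3 cluster in both embryos. CHL1 was high in those of the POU4F2 cluster alone. CBLN1 and ZIC markers named a finer cluster led by GNG8 and TCF7L2 with 987 and 944 CHL1 CPM. They also named another led by SST and ISL1 with 872 and 661 CPM. Together these held 837 and 828 cells, against 767 and 749 in the ZIC and CBLN1 cluster. They thus took in cells from elsewhere and are no plain subdivision of it. The origin of the added cells was not tested. Forebrain GABAergic-like cells covered a wide range of CHL1, from 383 and 272 CPM in a cluster with SST, NPAS1 and SOX6 through 177 and 146 CPM in one with ISL1 and SIX3 to 24.9 and 8.03 CPM in one with DLX1, DLX2 and VAX1. The cluster led by BCAN again stood apart from other radial glia-like clusters, at 192 and 174 CPM of CHL1 against 11.3 to 16.2 CPM.

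**Figure D3:**
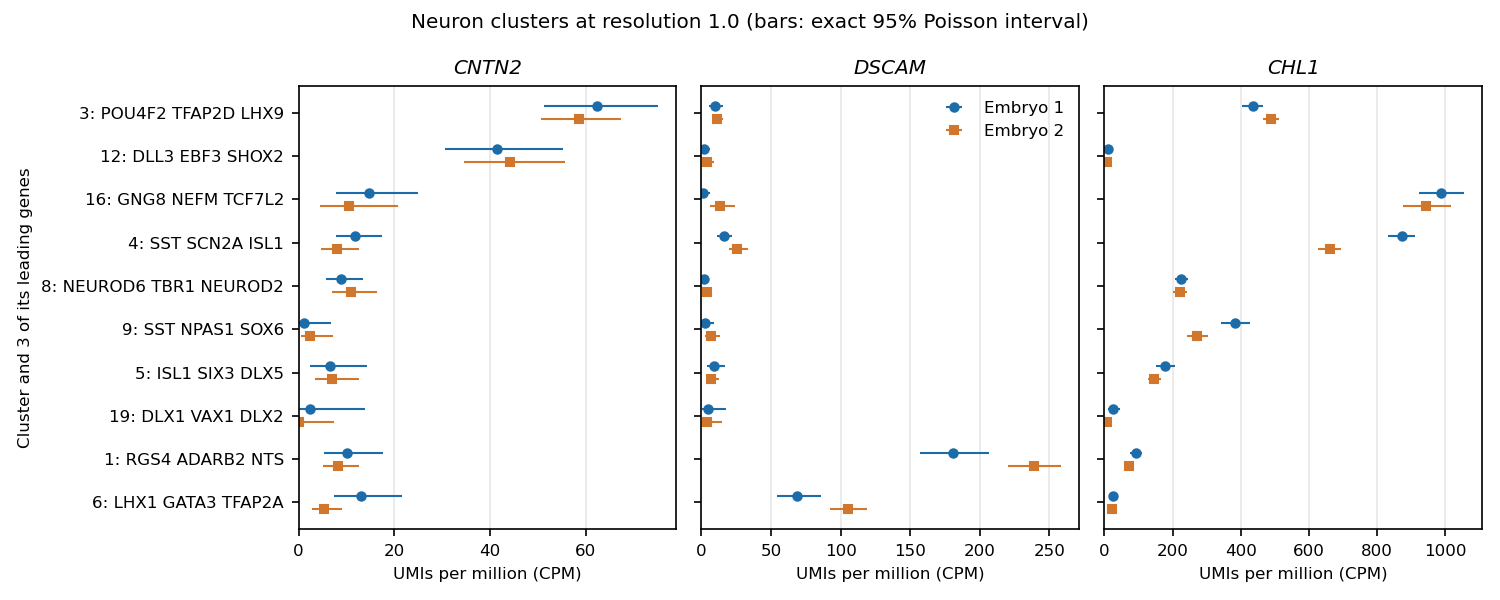
Levels of the 3 members in CPM (linear axis) in clusters with neuronal class names at a resolution of 1.0 (cluster 12 had no pan-neuronal marker past the limit), each given by its number and 3 of its leading genes, with a circle for embryo 1, a square for embryo 2 and bars for exact 95% Poisson intervals. Clusters 3 and 12 both hold CNTN2 (62.4 and 58.6, 41.6 and 44.2 CPM) and differ in CHL1 (435 and 489 against 10.6 and 7.97 CPM).

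CNTN2 and CHL1 were both high in midbrain glutamatergic-like cells but were seldom found in the same cell. In cells thinned to 2000 UMIs, 7 of 557 cells of embryo 1 held a UMI of both, where the product of the shares gives 17.9, and 10 of 1034 cells of embryo 2 did, where it gives 31.9. The ratio of observed to expected cells was 0.391 (exact 95% Poisson interval of the observed count, 0.157 to 0.805) and 0.314 (0.150 to 0.577). CHL1 was found in 10.9% and 9.43% of the cells with CNTN2 and in 30.2% and 32.4% of those without it. Over 9 other thinnings, clusterings and subsets, among them the cells of the POU4F2 cluster alone (0.460 and 0.342), the ratio ran from 0.223 to 0.483 in embryo 1 and from 0.189 to 0.373 in embryo 2. Elsewhere the counts were small and no difference from these ratios was tested. CNTN2 and CHL1 were found together in 3 and 1 cells against 5.72 and 4.59 expected in the ZIC and CBLN1 cluster and in 5 and 3 against 3.43 and 3.64 in cortical excitatory-like cells. DSCAM and CHL1 were found together in 4 and 11 cells against 6.51 and 15.9 expected in midbrain GABAergic-like cells. DSCAM with CHL1 in midbrain glutamatergic-like cells was above expectation, with 7 and 10 cells against 2.80 and 7.22 expected.

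This pattern led to a comparison, made after it had been seen, of midbrain glutamatergic-like cells with CNTN2 and no CHL1 UMI (97 and 180 cells) and cells with CHL1 and no CNTN2 UMI (177 and 382 cells). Another 15 and 23 cells held both and 298 and 523 held neither. Median UMIs were 3783 and 4098 in the first group and 3505 and 3354 in the second. The 2 members chose the cells, so their own values are no result, and all others are from edgeR (quasi-likelihood test on 10025 genes with Benjamini-Hochberg adjustment), in which 7.18% of genes were called, 3.74% higher and 3.44% lower in the cells with CNTN2. DSCAM, with 0 and 5 against 12 and 11 UMIs, was not called (-1.27 ± 0.72, adjusted p = 0.37). SHOX2, a homeobox factor, stood at 320 and 193 CPM in cells with CNTN2 against 88.5 and 68.9 CPM (1.78 ± 0.18, adjusted p = 1.4e-13), and EBF3, a factor of early neurons, at 288 and 301 against 144 and 122 CPM (1.31 ± 0.17, adjusted p = 3.0e-09). TCF7L2 went the other way, at 481 and 378 against 1399 and 1406 CPM (-1.62 ± 0.11, adjusted p = 3.9e-23). For each of these the embryos did not overlap between the groups. Of the 7 tested markers of midbrain glutamatergic neurons 4 were higher, NEUROD1 and BARHL2 beside SHOX2 and EBF3, 1 was lower (LHX9, -0.60) and 2 were not called, with a median log2 fold change of 1.24 against -0.01 over all genes. Of the 5 tested thalamic markers TCF7L2 was called and the other 4 were not.

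Of 26 tested genes of the families list, 3 were higher, 5 lower and 18 not called, with a median of -0.41. Over all genes 3.74% were higher and 3.44% lower. NCAM1, the neural cell adhesion molecule, stood at 325 and 282 CPM in cells with CNTN2 against 592 and 611 CPM (-0.89 ± 0.11, adjusted p = 1.6e-10, edgeR quasi-likelihood test with Benjamini-Hochberg adjustment). ROBO2, a receptor of Slit proteins, stood at 148 and 109 against 252 and 254 CPM (-0.91 ± 0.17, adjusted p = 3.8e-05, same edgeR test), and its relative ROBO3, known from commissural axons, at 31.7 and 20.3 against 3.11 and 2.30 CPM (3.32 ± 0.64, adjusted p = 6.8e-05, same edgeR test) on 12 and 15 against 2 and 3 UMIs. CADM1 was higher, at 153 and 111 against 74.6 and 64.3 CPM (1.02 ± 0.20, adjusted p = 1.4e-04, same edgeR test), as was IGSF8, and L1CAM (-1.04) and PVRL3 (-1.28) were lower. CNTN3 was also called lower, with 0 and 0 against 6 and 13 UMIs, and no fold is given. Of 14 tested partners, MSN was higher (2.01), NRP1 (-1.41) and CNTNAP2 (-0.58) were lower and 11 were not called, with a median of -0.31. In cells with at least 4000 UMIs, which left fewer cells, SHOX2, EBF3, TCF7L2, NCAM1, ROBO2 and CADM1 kept their calls and ROBO3, NEUROD1, BARHL2, LHX9, IGSF8, L1CAM, PVRL3, CNTN3, MSN, NRP1 and CNTNAP2 lost theirs. In the cells of the POU4F2 cluster alone (68 and 126 against 172 and 379 cells) SHOX2, EBF3, BARHL2, TCF7L2, NCAM1, ROBO2, ROBO3, IGSF8 and PVRL3 kept their calls, and CADM1 (0.51), NEUROD1, LHX9, L1CAM, CNTN3, MSN, NRP1 and CNTNAP2 did not.

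**Figure D4:**
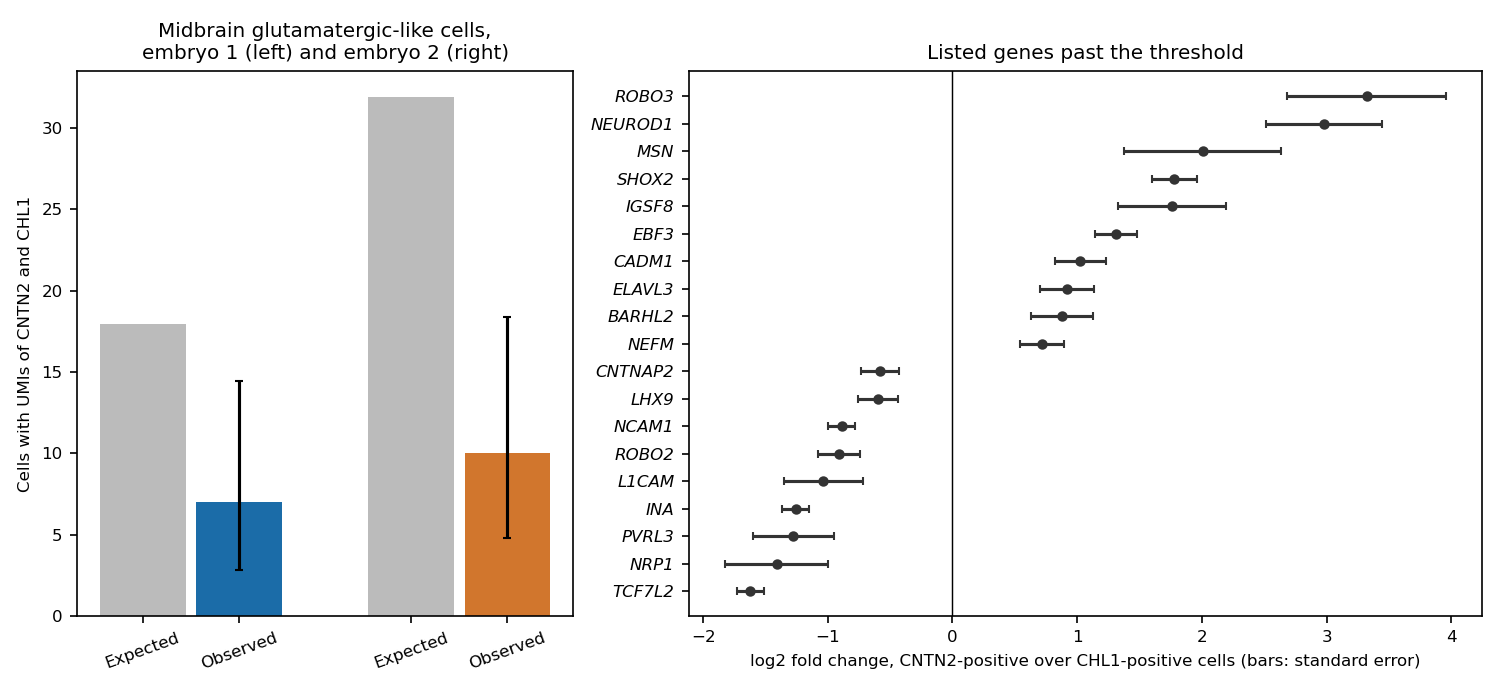
Left, number of midbrain glutamatergic-like cells with UMIs of both CNTN2 and CHL1 after thinning to 2000 UMIs (coloured bars, with the exact 95% Poisson interval) beside the number expected from the product of the shares (grey bars), 7 against 17.9 in embryo 1 and 10 against 31.9 in embryo 2. Right, log2 fold changes with standard errors of the listed genes past the threshold between cells with CNTN2 and cells with CHL1, from ROBO3 at 3.32 to TCF7L2 at -1.62 (CNTN3, with no UMI on 1 side, is not drawn).

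The levels were also followed along neuronal maturation, taken as the share of a cell's UMIs in 7 genes of differentiated neurons (SNAP25, STMN2, NEFM, SYP, RTN1, SNCB and THY1), with the cells of each class ordered by it and cut into 3 equal bins. CHL1 was higher in the last than in the first bin in cortical excitatory-like cells (147, 226 and 294 CPM in embryo 1 and 111, 231 and 312 CPM in embryo 2). The same held in the ZIC and CBLN1 cluster (742, 1046 and 1109 CPM, and 575, 852 and 905 CPM). In forebrain GABAergic-like cells the values were 165, 239 and 302 CPM in embryo 1 and 121, 201 and 197 CPM in embryo 2. In these 3 classes the intervals of the first and last bins did not meet in either embryo, but with 2 bins those of forebrain GABAergic-like cells met in embryo 2 (163 and 180 CPM). In midbrain GABAergic-like cells CHL1 stood at 45.1, 29.8 and 81.2 CPM and at 28.5, 39.7 and 79.4 CPM, with first and last bins apart in embryo 2 alone. Midbrain glutamatergic-like cells differed, with 372, 375 and 278 CPM of CHL1 in embryo 1 and 347, 481 and 375 CPM in embryo 2, so first and last bins did not share a direction between embryos, while with 2 bins the second was lower in both (384 and 300 CPM, and 409 and 394 CPM). CNTN2 in that class stood at 69.1, 56.9 and 85.3 CPM in embryo 1 and at 47.8, 57.7 and 87.3 CPM in embryo 2, with first and last bins apart in embryo 2 alone. DSCAM in midbrain GABAergic-like cells stood at 117, 140 and 119 CPM in embryo 1 and at 151, 207 and 166 CPM in embryo 2, with the intervals of first and last bins meeting in both and those of first and middle bins apart in embryo 2. In the ZIC and CBLN1 cluster DSCAM was lower in the last bin (17.1, 11.5 and 8.91 CPM, and 34.0, 27.5 and 12.7 CPM), with the intervals apart in embryo 2 alone. Bins of a score are ranges, not cell types, and no test was made.

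**Figure D5:**
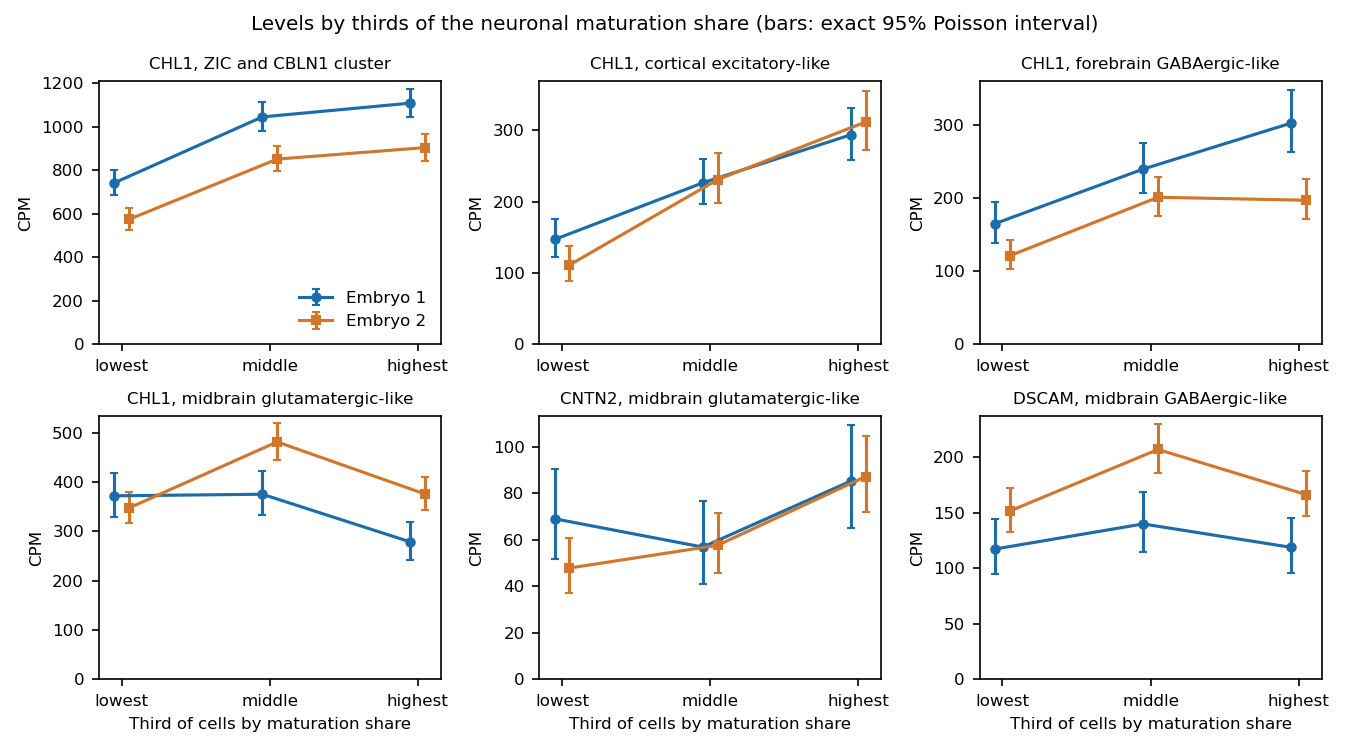
Level in CPM in the lowest, middle and highest bin of the maturation share, each with the same number of cells to within 1, for CHL1 in 4 neuronal classes and for CNTN2 and DSCAM in the class where each is highest, with exact 95% Poisson intervals. CHL1 goes from 147 to 294 and from 111 to 312 CPM in cortical excitatory-like cells, and DSCAM in midbrain GABAergic-like cells stands at 117, 140 and 119 CPM in embryo 1 and at 151, 207 and 166 CPM in embryo 2.

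Other adhesion genes of the contactin, L1, DSCAM, NCAM, sidekick, CADM, nectin, Robo and related families gave the frame for these values (30 genes found, 27 tested). Between neurons and progenitors 15 were higher, 7 lower and 5 not called, with a median log2 fold change of 0.74 against -0.05 over all genes. Of all genes tested 65.6% were called in this comparison, 30.4% higher and 35.2% lower. L1CAM, the founder of the family of CHL1, was higher in neurons (38.3 and 35.1 against 4.35 and 3.51 CPM, 2.99), as was DSCAML1, the paralog of DSCAM (6.04 and 4.94 against 0.70 and 0.63 CPM, 2.52), while IGSF11 (-3.50) was lower, and MCAM was called lower with 1 and 1 UMIs in neurons against 31 and 24. Of 14 tested partners 10 were higher and 4 lower (median 0.80). ANK3, the ankyrin that links L1-type molecules to the cytoskeleton, stood at 2.93 and APLP1 at 2.04, against -2.49 for MSN and -2.47 for PTPRZ1, a phosphatase that binds contactins.

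Between glutamatergic and GABAergic classes 8 of the 27 families genes were higher and 4 lower (median 0.25 against -0.01), with MDGA1 (4.43), ALCAM (1.39) and ROBO3 (1.36) on the side of CNTN2 and CHL1 and SDK2 (-1.60) on the side of DSCAM. Over all genes 13.0% were higher and 11.4% lower. Of the partners 8 were higher and 3 lower (median 0.26), led by UNC5C, a netrin receptor (-1.61), PTPRZ1 (1.56), APP (0.91) and ANK3 (0.85). Cortical against midbrain glutamatergic-like cells gave 1 higher and 6 lower families genes (median -0.23 against 0.00), with ALCAM (1.45), ROBO3 (-2.27), CNTN3 (-2.12) and NCAM1 (-1.47), and 3 higher and 3 lower partners (median -0.08), with PTPRZ1 (2.13), ITGB1 (1.21), MSN (0.98) and APLP1 (-0.88). The shares of all genes here were 9.59% higher and 8.72% lower.

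Between forebrain and midbrain GABAergic-like cells 3 families genes were higher and 9 lower (median -0.48 against 0.01). Over all genes 9.11% were higher and 8.46% lower. The paralogs DSCAM and DSCAML1 went opposite ways in this comparison, DSCAML1 with 12 and 9.28 CPM in the forebrain class against 1.28 and 1.03 CPM in the midbrain class (3.12 ± 0.50, adjusted p = 6.0e-07, edgeR quasi-likelihood test with Benjamini-Hochberg adjustment). The forebrain values of DSCAML1 were above both midbrain values, while those of DSCAM were below. CNTN3 was lower (-2.94), KIRREL1 was lower (-1.62), and CNTN6 was called lower with 0 and 3 UMIs against 18 and 89. Of the partners 5 were higher and 2 lower (median 0.07), and the netrin receptor UNC5C was lower with DSCAM (-3.39), beside CNTNAP2 (1.70), MSN (1.70) and NRP1 (-1.10). Within progenitors 4 families genes were higher and 4 lower in dividing cells (median 0.03 against -0.01), with SDK1 (1.48), CNTN3 (-1.45), ALCAM (-1.12) and CADM3 (-1.11), and 5 partners were lower and none of the 14 higher (median -0.24), among them NCAN (-1.39), PTPRZ1 (-0.82), PTPRD (-0.48) and MSN (-0.47). The shares of all genes there were 13.1% higher and 11.0% lower. SDK1, SDK2, ROBO1 and NCAN have several gene models each, which were summed.

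By likeness of pattern, taken as Pearson r of log2(CPM + 1) over the 16 clusters and the smaller of the 2 embryos, the genes nearest to CNTN2 among 6385 were SRRM3 (0.82), the unnamed model evm.model.chr21.89 (0.81), ZFHX2, DNAJC6 and DPYSL5. DSCAM was nearest to KLH35 (0.81), MTUS2 (0.77), FOG2, CADPS and IGSF21, and CHL1 to GABBR2, a subunit of the GABA-B receptor (0.87), the sodium channel SCN2A (0.86), NRX1A, GABARAPL2 and GRM5. The members were less like one another, with 0.65 for CNTN2 and CHL1, 0.54 for CNTN2 and DSCAM and 0.34 for DSCAM and CHL1. All these values share the same 16 clusters and their depth. Over the 10 neuron and progenitor clusters alone other genes came first. These were HECW2 for CNTN2 (0.88), C10ORF84 for DSCAM (0.96) and APP for CHL1 (0.96), so the nearest genes depend on the clusters used.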

How the data were processed

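The authors counted the reads of the 2 libraries against TS_2.0, a long-read genome assembly, and deposited for each barcode the UMI count of each gene model as it was, with no scaling. The submitters' processing notes name fastp, Cell Ranger 3.1.0 and Seurat 3. No coordinates or sequences were used here, and the human and macaque cells were not analysed here. Gene models of 1 name were summed.

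Cells with at least 200 genes were scaled to 10000 UMIs, and 2000 variable genes, without the members and listed genes, gave 20 principal components and clusters (leidenalg 0.10.2, 20 neighbours, resolution 0.5). A cluster was named by at least 3 markers that were 2 times higher than in other cells and in at least 10% of its cells, and stayed unnamed on a tie or where leading genes went against the name. Doublets were kept, since Scrublet in scanpy 1.11.5 called 0 and 1 cells. As an alternative the 566 and 696 highest scores were left out. UMIs summed per embryo and class were tested in 1 fit over 12 classes with edgeR 4.0.16 (TMM, filterByExpr, quasi-likelihood test, embryo as a block, Benjamini-Hochberg, threshold 0.05) in R 4.3.3. The procedure was run on simulated data with 200 genes changed 4-fold and no other class difference. That setting does not cover comparisons in which a large share of genes differed. The common biological coefficient of variation was 0.0637. Classes of 1 embryo come from the same animal, and their deviations correlated over 28 pairs of 8 classes by 0.0898 to 0.321 (median 0.220).

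Genes named are the members, a list of families, a list of partners (in each comparison the 4 called genes with the largest changes), and the 5 genes most alike among those with at least 200 UMIs in each embryo. For the cells split by CNTN2 and CHL1, other called genes are also named, after their values were seen, as are DSCAML1 where not among the 4 and the finer clusters. Members, lists and markers were chosen with earlier results of these data known. The alternatives were RLE factors, library totals, no filter, no block, DESeq2 1.42.0, each embryo left out, at least 500 or 1000 genes, 30 components, resolution 1.0, cells under 1% haemoglobin, and marker gates. A gate took at least 2 different markers of a class with a UMI (4 for dividing cells). Ties and cells with 1% haemoglobin or more were left out of the gates. Leaving out the ZIC and CBLN1 cluster or cluster 12, counting cluster 7 as progenitors, fitting neurons and progenitors alone, the split of cells by CNTN2 and CHL1 with its alternatives and the cells of the POU4F2 cluster alone were added after the data were seen. Levels by mean over cells and shares at 1000 UMIs were also computed with Python 3.11.15 and scipy 1.17.1.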

Additional observations from a re-analysis of the deposited data

Results flagged for a closer look

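The unnamed gene model evm.model.chr1.654, numbered 2 after that of DSCAM, belongs to no comparison above and had 111 and 110 CPM in midbrain GABAergic-like cells of embryos 1 and 2, against 0.92 and 2.11 CPM in radial glia-like cells. It stood at a log2 fold change of -5.15 between forebrain and midbrain GABAergic-like cells (adjusted p = 4.7e-33, edgeR quasi-likelihood test with Benjamini-Hochberg adjustment). A UMI of it was found in 27.4% and 24.4% of the midbrain GABAergic-like cells with DSCAM and in 21.9% and 20.6% of those without. These shares are of unthinned cells, and the groups were not matched in depth. A link between the model and DSCAM within cells was not tested.

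Barcodes with fewer than 200 genes, which were left out, held 17 CHL1 UMIs (embryo 1) and 4 (embryo 2), beside 1 and 0 of CNTN2. The unnamed cluster 11, led by HBE1, HBG1 and HBZ, had a mean CHL1 level of 45.1 CPM, against 9.43 and 8.52 CPM in erythroid-like cells, on 26 and 14 UMIs in 12 of 265 and 2 of 137 cells. Its unthinned share of cells with a UMI (4.53% and 1.46%) was below that of erythroid-like cells (5.92% and 5.19%). Depth was unlike, with median UMIs of 1929 and 1572 against 12416 and 14320. In cells thinned to 2000 UMIs the share was above, at 2.33% and 4.00% against 1.46% and 1.33%. That rests on 3 and 2 cells of cluster 11. Whether the CHL1 UMIs of cluster 11 come from free RNA was not tested.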

How the results depend on the processing

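Each embryo has 1 library, so depth and animal cannot be told apart, and low counts limit CNTN2 and DSCAM outside their main classes. Scaling by library totals moved the median of all genes to 0.14 (neurons over progenitors), -0.11 (cortical over midbrain) and -0.13 (CNTN2 over CHL1 cells), and the share of calls that were higher went from 46.3% to 59.4%, from 52.4% to 34.8% and from 52.1% to 31.9%, from 53.4% to 43.0% for glutamatergic over GABAergic and from 54.3% to 41.0% (44.7% with RLE) for dividing cells. No called gene of the 2 lists changed direction under TMM, RLE, library totals, no block or DESeq2 in the 5 class comparisons. CNTN2 between forebrain and midbrain GABAergic-like cells stood at -0.90 with library totals (adjusted p = 0.058), -0.93 without filter (0.056), -0.96 by DESeq2 (0.091) and -0.59 with marker gates (0.55), and at -1.09 to -0.86 without 1 embryo. Between dividing and radial glia-like cells CNTN2 stood at 2.70 with at least 500 genes (adjusted p = 0.030), -0.78 without high Scrublet scores, -1.22 with gates (0.016) and 0.15 to 0.33 without 1 embryo, DSCAM at -0.52 without high scores and -0.64 to 1.09 without 1 embryo, and CHL1 at 0.86 and 0.57 with at least 500 and 1000 genes (0.0038 and 0.017), 0.92 without cluster 12 and -0.96 without either embryo. DSCAM in neurons over progenitors was 2.61 to 2.62 without 1 embryo. With at least 500 or 1000 genes the cluster with BCAN among its leading genes was in no class. With at least 500 genes, at a resolution of 1.0 and with gates a striatal-like class was also counted as GABAergic. The cause of these shifts was not tested. Gates called 3245 genes (neurons over progenitors), 957 (glutamatergic over GABAergic) and 1072 (forebrain over midbrain GABAergic). They left fewer cells in each neuronal class of the main fit, but more dividing cell-like (1882 and 1589) and radial glia-like cells (1462 and 1461). Thalamic-like, striatal-like and neurogenic progenitor-like classes were added, so the sides compared were not the same. Between CNTN2 and CHL1 cells, those of at least 4000 UMIs gave 200 genes and those of the POU4F2 cluster alone 414, with fewer cells in each group.

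Without the replicate block, which pairs classes of 1 animal, CNTN2 between the GABAergic classes was -0.93 (adjusted p = 0.117, edgeR), and 1530 (glutamatergic over GABAergic), 1148 (cortical over midbrain), 1060 (forebrain over midbrain), 1372 (dividing) and 399 genes (CNTN2 over CHL1 cells) were called. It changed no other call of a member, and of the listed genes named it ended the calls of ALCAM (cortical over midbrain), CNTN3 (also by DESeq2), MSN and PTPRD (dividing), and L1CAM, MSN, NRP1, CNTNAP2, BARHL2 and LHX9 (CNTN2 over CHL1 cells). CNTN2 in midbrain glutamatergic-like cells was 54.1 CPM at resolution 1.0 and 84.6 CPM with gates, and CHL1 in the ZIC and CBLN1 cluster 1046 CPM as a mean over cells and 581 CPM with gates. Mean shares of cells were 18.7% for CNTN2, 28.8% for DSCAM and 62.5% for CHL1 unthinned, and 6.65%, 15.3% and 44.3% at 1000 UMIs. Under alternatives 322 log2 fold changes kept their direction and, where a test was made, their side of the threshold. Fits without 1 embryo have no test, and their values were counted among the 322 when within the SD of these fits from the main value. Of the others 30 lost the threshold, 1 gained it, 7 reversed and 6 values without a test moved.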
